A study of Mus musculus with 10 samples.

Results

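The CCN family of matricellular genes was followed across 10 mouse tumors. Its 5 members were taken by symbol, under the older names CTGF, CYR61, NOV, WISP1 and WISP2, from the 16895 genes that each file lists. All 5 were found. All 5 also passed the filter on low values that left 13707 genes for testing. The current mouse symbols are Ccn2 for CTGF, Ccn1 for CYR61, Ccn3 for NOV, Ccn4 for WISP1 and Ccn5 for WISP2. The rule takes genes by family name and uses no measured value, though it was set with earlier results of these data known.

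CCN proteins are secreted into the extracellular matrix, where they act as signals rather than as scaffold. They bind integrins and heparan sulfate proteoglycans on the cell surface, and they bind growth factors such as TGF-beta and BMP proteins. CTGF and CYR61 are the standard readouts of YAP1, a coactivator that the Hippo pathway holds in check and that reaches DNA through TEAD proteins. WISP1 was named as a gene induced by WNT1 signaling, NOV is often described as restraining proliferation, and WISP2 is a connective tissue member that lacks the last domain of the family.

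Every tumor was raised with an avian RCAS retrovirus released by DF1 cells, a chicken fibroblast line that the labels also enter as the cell type. Infected DF1 cells went into the subarachnoid space of newborn mice that lacked Cdkn2a, so that deletion is shared by all 10 tumors. The mice carried the receptor tv-a under Nestin control, which limits infection to cells with Nestin promoter activity. The RCAS vector held YAP1-MAML2-v2, a fusion of YAP1 to the Notch coactivator MAML2, in 7 tumors, and NLS-2SA-YAP1, named in the series title as constitutively active YAP1, in 3. Of the YAP1-MAML2-v2 tumors, replicates 1, 3, 4 and 5 were extra cranial, 2 and 6 extra axial and 7 intra ventricular. Of the NLS-2SA-YAP1 tumors, replicate 1 was extra axial and the rest extra cranial. Age at collection was not given, and no uninfected tissue was analysed here. The names of the deposited files give YAP1-MAML2-v2 replicates 6 and 7 the same number. These 2 tumors may therefore come from 1 mouse, which the labels do not state. For the other libraries too, nothing but the labels says that they are separate animals, so p-values measure the spread between these samples.

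Library totals ran from 28001143 to 44544314. The files do not hold plain read counts: for every gene at 2, a library has 4.54 to 6.82 genes at 1, so read depth is unknown and no counting interval is given. Levels are given as CPM, the usual per-library scaling applied to TMM-adjusted totals. The 10 listed markers of meningeal fibroblasts and arachnoid summed to between 5230 and 26300 CPM in every library, and PTGDS was at 0 in YAP1-MAML2-v2 replicate 5. The 10 skeletal muscle markers summed to 284 CPM in NLS-2SA-YAP1 replicate 3, 79.8 CPM in replicate 2 of that construct, 58 CPM in YAP1-MAML2-v2 replicate 3 and at most 7.13 CPM elsewhere. The intra ventricular tumor had 2170 CPM of 5 astrocyte markers, against 188 CPM or less elsewhere, and 2140 CPM of 8 macrophage and microglia markers, against 900 CPM or less. Sums over the 10 tumors ran from 10.9 to 912 CPM for cartilage and bone, 159 to 1000 for endothelium, 653 to 2420 for pericytes and smooth muscle, and 379 to 1070 for neurons. In bulk tumor RNA, more cells of a type and more RNA per cell cannot be told apart.

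The 5 genes share a signature near the start of the coding sequence, in the domain that resembles insulin-like growth factor binding proteins. It reads glycine, cysteine, any residue, 2 cysteines, 2 free residues and a cysteine. The 24 coding bases of that signature are shown for each mouse gene to make the family relation visible, 5′ to 3′, with cysteine codons in capitals. They were read from GENCODE M21 transcripts (mm10), and each gene holds the signature once.
CTGF: ggcTGCggcTGCTGCcgcgtcTGC
CYR61: ggcTGCggcTGCTGTaaggtcTGC
NOV: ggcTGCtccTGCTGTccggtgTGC
WISP1: ggcTGTgaaTGCTGTaagataTGT
WISP2: ggcTGTggcTGCTGTcgagtgTGT

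The stretch begins at codon 52 in CTGF, 49 in CYR61, 54 in NOV, 72 in WISP1 and 49 in WISP2. WISP2 is the short member, with 251 codons and 29 cysteine codons. The other coding sequences have 348 codons in CTGF, 354 in NOV, 367 in WISP1 and 379 in CYR61, with 38 to 40 cysteine codons each. Ccn2 lies on chromosome 10 at 24595442 to 24598683 and Ccn1 on chromosome 3 at 145646976 to 145649981 (mm10, GENCODE M21). Ccn3 at 54745702 to 54754039 and Ccn4 at 66891320 to 66923201 are both on chromosome 15, and Ccn5 is on chromosome 2 at 163820861 to 163833146.

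RefSeq's promoter table (GRCm38.p6) matched 1 of the 5 members, Ccn1. Its promoter is shown because CYR61 is a classical target of the YAP1 and TEAD complex and had the widest spread of the members. The window covers 250 bases before and 50 after the start site, chr3:145649936-145650235 on the minus strand, 5′ to 3′, with the match to the TEAD motif in capitals.
Ccn1 promoter: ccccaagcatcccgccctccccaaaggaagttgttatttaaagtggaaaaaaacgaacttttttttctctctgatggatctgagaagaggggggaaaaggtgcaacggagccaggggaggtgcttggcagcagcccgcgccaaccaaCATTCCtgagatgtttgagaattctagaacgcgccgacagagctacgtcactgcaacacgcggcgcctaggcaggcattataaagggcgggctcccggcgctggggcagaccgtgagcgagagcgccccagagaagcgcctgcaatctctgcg

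The TEAD motif was searched as GGAATG on both strands. It occurred once, as the reverse complement CATTCC, 103 bases before the start site. Of 32851 promoter windows of the same length, 14.7% hold it. TATAAA, the TATA box core, also occurred once, 25 bases before the start site, and 13.6% of windows hold it. The AP-1 motif TGACTCA (5.2% of windows) and the cAMP response element TGACGTCA (1.79%) had no match in this window. A match describes letters and is no evidence of binding.

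Per kilobase of exon, CTGF, CYR61 and NOV stood far above WISP1 and WISP2. The median over 10 tumors was 271 CPM per kilobase for CTGF, 173 for CYR61 and 147 for NOV. WISP1 had a median of 1.02 and WISP2 one of 0.135 CPM per kilobase. Each of the first 3 genes was above WISP1 and WISP2 in 10 of 10 tumors on this scale. Within the upper trio the order was not fixed, since CTGF exceeded CYR61 in 8 of 10 tumors and CYR61 exceeded NOV in 6 of 10. WISP1 exceeded WISP2 in 8 of 10, and both exceptions were NLS-2SA-YAP1 tumors, replicates 1 and 3.

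Tumor-to-tumor spread was wide in all 5 members. The SD of log2 CPM over the 10 libraries was 2.53 for CYR61, 2.07 for CTGF, 1.98 for WISP1, 1.90 for NOV and 1.51 for WISP2. The median SD of the 13707 tested genes was 0.82. CYR61 varied more than 94% of tested genes, CTGF more than 89.2%, WISP1 more than 87.9%, NOV more than 86.8% and WISP2 more than 79.1%. These ranks take no account of level, and the mean log2 CPM of WISP2 was above that of only 5.12% of tested genes. Single tumors set much of the spread, most of all for CTGF and CYR61. Without NLS-2SA-YAP1 replicate 1 the SD of CTGF was 1.25, and without YAP1-MAML2-v2 replicate 6 that of CYR61 was 1.29. The SD of NOV was 1.36 without YAP1-MAML2-v2 replicate 7, and that of WISP1 was 1.53 without NLS-2SA-YAP1 replicate 1.

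**Figure D1:**
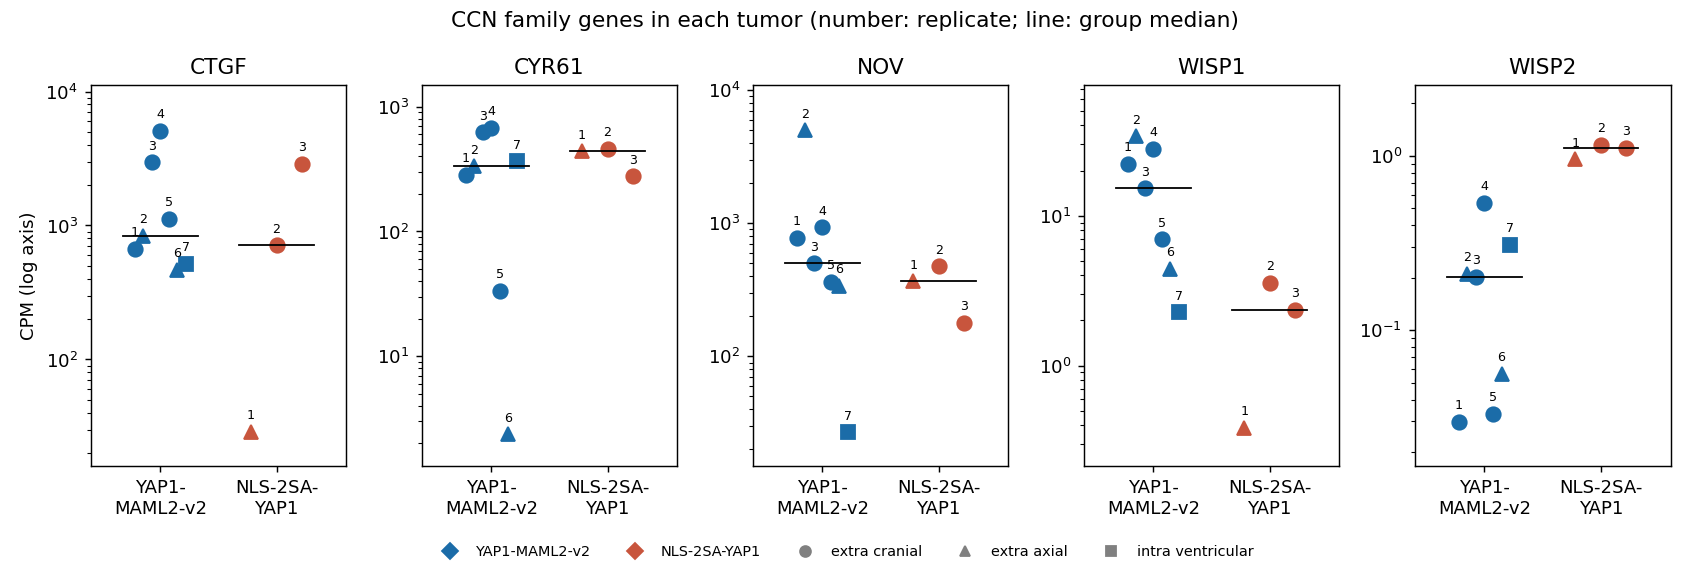
CPM of each CCN gene (log axis, a separate scale per panel) in the 7 YAP1-MAML2-v2 and 3 NLS-2SA-YAP1 tumors, with the replicate number beside each point, the shape for the region and a line at the group median. WISP2 is the gene whose groups do not overlap, and CTGF, CYR61 and NOV each have a tumor far below the rest.

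CTGF, which acts with TGF-beta in fibrosis and in cartilage and vessel growth, was the most abundant member by the median. In YAP1-MAML2-v2 tumors replicates 1 to 7 had 667, 835, 2970, 5090, 1120, 465 and 517 CPM. The NLS-2SA-YAP1 tumors, replicates 1 to 3, had 28.7, 713 and 2900 CPM. The NLS-2SA-YAP1 tumors thus held the lowest value of the series and 1 of its 3 highest, and the groups overlapped. The NLS-2SA-YAP1 mean was 1210 ± 1500 CPM (SD, n = 3) and the YAP1-MAML2-v2 mean 1670 ± 1740 CPM (SD, n = 7).

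CYR61, an integrin ligand in vessel growth and wound repair, took a different course. Replicates 1 to 7 of YAP1-MAML2-v2 had 284, 333, 625, 680, 33.5, 2.36 and 365 CPM. The NLS-2SA-YAP1 tumors had 440, 460 and 276 CPM. All but 2 tumors lay between 276 and 680 CPM, and YAP1-MAML2-v2 replicates 5 and 6 lay below them. The NLS-2SA-YAP1 values sat inside the range of the YAP1-MAML2-v2 tumors. These 2 libraries were also the most alike of any pair over all tested genes (Pearson's r = 0.915 across genes, which are not independent replicates).

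The ratio of CTGF to CYR61 differed widely between tumors. YAP1-MAML2-v2 replicate 6, lowest of all in CYR61, was also the lowest of its construct in CTGF, while NLS-2SA-YAP1 replicate 1, lowest of all in CTGF, had CYR61 near the other tumors. Per kilobase, CTGF was 139 times as high as CYR61 in YAP1-MAML2-v2 replicate 6 and 23.6 times in replicate 5. In NLS-2SA-YAP1 replicate 1 the ratio was 0.046, with 10.0 CPM per kilobase of CTGF and 218 of CYR61. It lay between 1.00 and 7.41 in the other 7 tumors. Over the 10 tumors, log2 CPM of CTGF and CYR61 had a Pearson's r of 0.13 (permutation p = 0.613) and a Spearman's rho of 0.36 (permutation p = 0.317). Without the 2 tumors farthest from the CTGF median, r was 0.40. Within the 7 YAP1-MAML2-v2 tumors, r was 0.54 (exact permutation p = 0.187) and rho 0.68 (exact permutation p = 0.11).

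**Figure D2:**
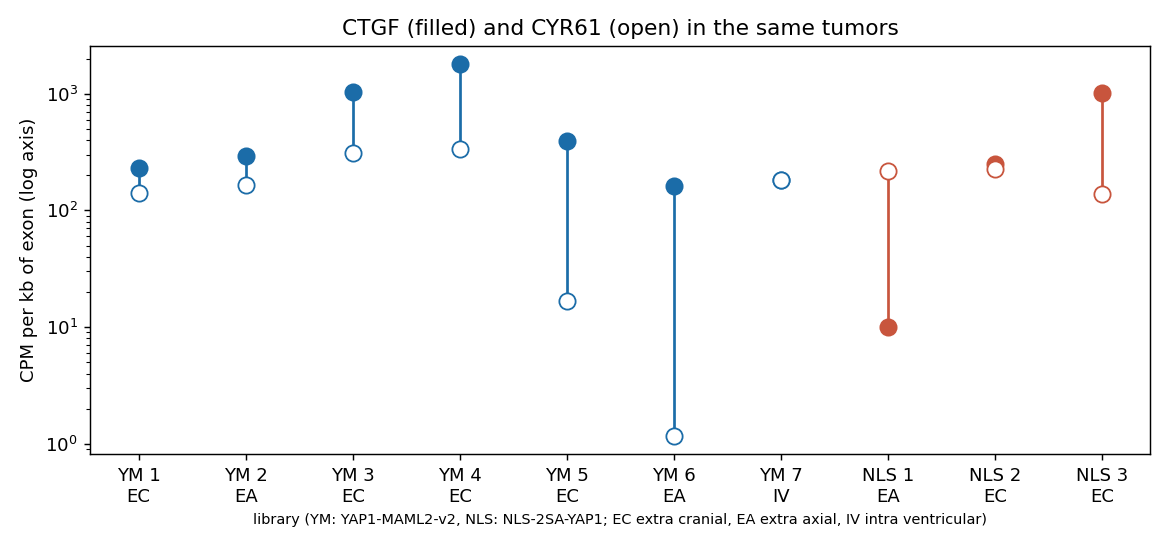
CTGF (filled) and CYR61 (open) in CPM per kilobase of exon on a log axis, joined for each tumor, blue for YAP1-MAML2-v2 and red for NLS-2SA-YAP1. The long lines are YAP1-MAML2-v2 replicates 5 and 6, with ratios of 23.6 and 139, and NLS-2SA-YAP1 replicate 1, where the order is turned.

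NOV, a CCN protein that also binds NOTCH1, had the largest single value beside CTGF. Its CPM in YAP1-MAML2-v2 replicates 1 to 7 was 779, 4990, 500, 937, 363, 339 and 26.9. NLS-2SA-YAP1 replicates 1 to 3 had 368, 475 and 178 CPM. Replicate 2, an extra axial YAP1-MAML2-v2 tumor, stood far above the next tumor, replicate 4. The groups overlapped. The lowest value belonged to the intra ventricular tumor, the library with the most astrocyte and macrophage marker RNA, and whether that RNA bears on NOV was not tested.

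WISP1 was present at far lower levels and ran lower in NLS-2SA-YAP1 tumors. YAP1-MAML2-v2 replicates 1 to 7 had 22.3, 33.9, 15.2, 27.9, 6.96, 4.41 and 2.27 CPM. NLS-2SA-YAP1 replicates 1 to 3 had 0.383, 3.55 and 2.36 CPM. The intra ventricular tumor, at 2.27 CPM, was the YAP1-MAML2-v2 library that reached into the NLS-2SA-YAP1 range. The means were 2.10 ± 1.60 CPM (SD, n = 3) and 16.1 ± 12.3 CPM (SD, n = 7).

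WISP2 was near the lower limit of these files, and ran higher in NLS-2SA-YAP1 tumors. The 3 NLS-2SA-YAP1 tumors had 0.957, 1.16 and 1.11 CPM, from deposited values of 40, 34 and 44. YAP1-MAML2-v2 replicates 1 to 7 had deposited values of 1, 8, 8, 19, 1, 2 and 13, or 0.0298 to 0.539 CPM. Every NLS-2SA-YAP1 tumor was above every YAP1-MAML2-v2 tumor, and the 3 NLS-2SA-YAP1 values lay close together, at 1.07 ± 0.106 CPM (SD, n = 3). The YAP1-MAML2-v2 values include 1 and 2, whose meaning in these files is unclear. Among them only 19 and 13 reach the filter's minimum count of 10. WISP2 thus passed the filter on low values through the NLS-2SA-YAP1 tumors, and the lack of overlap is a description.

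Between the constructs, edgeR's quasi-likelihood test with construct and region as terms called 0 of the 5 members after Benjamini-Hochberg adjustment over all genes. It called 0.0146% of all tested genes. At an unadjusted p under 0.05 it had 2 of the 5 members, WISP1 and WISP2, against 13.1% of all tested genes. DESeq2 called 1 of 5, WISP1, and 4.92% of all tested genes. The libraries of the 2 constructs did not overlap in 1 of 5 members, WISP2, and in 6.73% of all tested genes.

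WISP1 had a log2 fold change of -3.34 (SE 0.96) in NLS-2SA-YAP1 against YAP1-MAML2-v2 tumors. The edgeR adjusted p was 0.228, and DESeq2 gave -3.36 (SE 0.78) with an adjusted p of 0.00157. Over all settings tried, edgeR, DESeq2 and limma adjusted p-values ran from 0.00157 to 0.543. An exact two-sided permutation test of the mean log2 CPM gave p = 0.05, where 7 against 3 tumors allow no less than 0.0167. In extra cranial tumors alone, the 2 NLS-2SA-YAP1 tumors had 3.55 and 2.36 CPM of WISP1 and the 4 YAP1-MAML2-v2 tumors 6.96 to 27.9 CPM, with a log2 fold change of -2.62 (SE 0.72; edgeR adjusted p = 0.359).

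WISP2 had a log2 fold change of 2.59 (SE 1.08; edgeR adjusted p = 0.354). Leaving out YAP1-MAML2-v2 replicate 1, 5 or 6, the tumors with deposited values of 1 and 2, gave 2.38 to 2.40, and leaving out replicate 4, at 19, gave 3.33. In limma-voom the log2 fold change was 3.62, and DESeq2 gave an adjusted p of 0.319. Over all settings the edgeR, DESeq2 and limma adjusted p-values ran from 0.0838 to 0.695. The exact two-sided permutation test gave p = 0.0167, the smallest that the design allows. It is no independent support, since WISP2 passed the filter on low values through the group where it is high. The 5 adipocyte markers summed to 1.12, 61.7 and 51.3 CPM in NLS-2SA-YAP1 replicates 1 to 3, with ADIPOQ at 0 in replicate 1. For the other construct the sums ran from 0.327 to 19.4 CPM, highest in its replicate 2, whose WISP2 was 0.21 CPM. The part of adipocyte markers in the WISP2 values was not tested. Muscle markers summed to 7.13 CPM in NLS-2SA-YAP1 replicate 1, where WISP2 was 0.957 CPM. Their range among YAP1-MAML2-v2 tumors was 1.81 to 58 CPM. With the muscle level as a covariate, chosen after seeing the data, the log2 fold change of WISP2 was 2.39 (SE 1.64; edgeR adjusted p = 0.695). The 5 choroid plexus and ependyma markers had sums of 26.3 to 86.8 CPM in YAP1-MAML2-v2 and 80.8 to 249 CPM in NLS-2SA-YAP1 tumors. TTR was at 0 in all 3 NLS-2SA-YAP1 tumors and in YAP1-MAML2-v2 replicates 2 to 6. The part of these 5 markers in the values of WISP1 and WISP2 was not tested.

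For CTGF the log2 fold change between constructs was -1.30 (SE 0.99; edgeR adjusted p = 0.62). Leaving out NLS-2SA-YAP1 replicate 1 gave -0.45, and leaving out its replicate 3 gave -2.72. With the muscle marker level as a covariate it was -4.09 (SE 1.31; edgeR adjusted p = 0.447), an alternative chosen after seeing the data, and adjusted p-values over all settings of edgeR, DESeq2 and limma ran from 0.384 to 0.896. NOV had -1.50 (SE 0.83; edgeR adjusted p = 0.475), and -0.66 without YAP1-MAML2-v2 replicate 2. CYR61 had 0.42 (SE 1.20; edgeR adjusted p = 0.929), and its sign turned without NLS-2SA-YAP1 replicate 1 (-0.14). For CYR61 limma-voom gave 1.44 (SE 1.19) and limma on log2 CPM 1.65 (SE 1.53). Leaving out YAP1-MAML2-v2 replicates 6 and 7 together, chosen after seeing the data, gave 0.01 for CYR61, -3.40 for WISP1, 2.40 for WISP2, -1.62 for NOV and -1.30 for CTGF. Exact two-sided permutation p-values were 0.367 for CTGF, 0.6 for NOV and 0.65 for CYR61.

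Between regions, 3 extra axial tumors were set against 6 extra cranial ones in the same fit. EdgeR called 0 of 5 members, as it did 0% of all tested genes, and DESeq2 called 0 of 5 and 0.226% of all tested genes. At an unadjusted edgeR p under 0.05 there was 1 member, CTGF, against 3.01% of all tested genes. In 0 of 5 members did the regions not overlap, against 0.89% of all tested genes.

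CTGF ran lower in extra axial tumors. These had 835, 465 and 28.7 CPM, and the extra cranial tumors had 667, 2970, 5090, 1120, 713 and 2900 CPM. A single extra axial tumor, YAP1-MAML2-v2 replicate 2, lay above the 2 lowest extra cranial ones. The means were 443 ± 403 CPM (SD, n = 3) and 2240 ± 1740 CPM (SD, n = 6), with a log2 fold change of -2.77 (SE 1.06; edgeR adjusted p = 1, DESeq2 adjusted p = 0.1). Adjusted p-values over all settings of edgeR, DESeq2 and limma ran from 0.1 to 1. The exact two-sided permutation test gave p = 0.0714, and the smallest p that 6 against 3 tumors allow is 0.0238. Without YAP1-MAML2-v2 replicate 2 the log2 fold change was -3.54 (SE 1.26). It was -1.93 (SE 0.97) without NLS-2SA-YAP1 replicate 1, and with YAP1-MAML2-v2 tumors alone -1.91 (SE 0.89). The muscle markers summed to 1.81 to 7.13 CPM in extra axial and 1.87 to 284 CPM in extra cranial tumors. With the muscle level as a covariate the fold was -1.46 (SE 0.89; edgeR adjusted p = 1). Cartilage and bone markers summed to 10.9 to 184 CPM in extra axial and 11.8 to 796 CPM in extra cranial tumors. YAP1-MAML2-v2 replicate 4 was the highest extra cranial tumor both in these markers and in CTGF. The intra ventricular tumor, outside this comparison, had 912 CPM of these markers and 517 CPM of CTGF. The part of cartilage and bone markers in the CTGF values was not tested.

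The remaining members did not separate by region. NOV had a log2 fold change of 1.52 (SE 0.76) that rested on YAP1-MAML2-v2 replicate 2, and without that tumor it was -0.38 (SE 0.58). In limma-voom it was 0.35 (SE 0.75) and in limma on log2 CPM 0.85 (SE 0.75). CYR61 had -0.71 (SE 1.25), and -0.01 without YAP1-MAML2-v2 replicate 6. Limma-voom gave it -2.54, and limma on log2 CPM with a prior count of 0.5 gave -2.01 (SE 1.56). WISP1 had -0.63 (SE 0.85), -2.42 when YAP1-MAML2-v2 replicate 2 was left out and 0.08 when NLS-2SA-YAP1 replicate 1 was. WISP2 had -0.46 (SE 1.14), and 0.26 without YAP1-MAML2-v2 replicate 4. Their edgeR adjusted p-values were all 1. The interaction of construct and region rests on NLS-2SA-YAP1 replicate 1, the only extra axial tumor of its construct, so only its size is given. It was largest for CTGF (log2 difference -4.04, SE 1.70), which was lowest of all in that tumor.

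**Figure D3:**
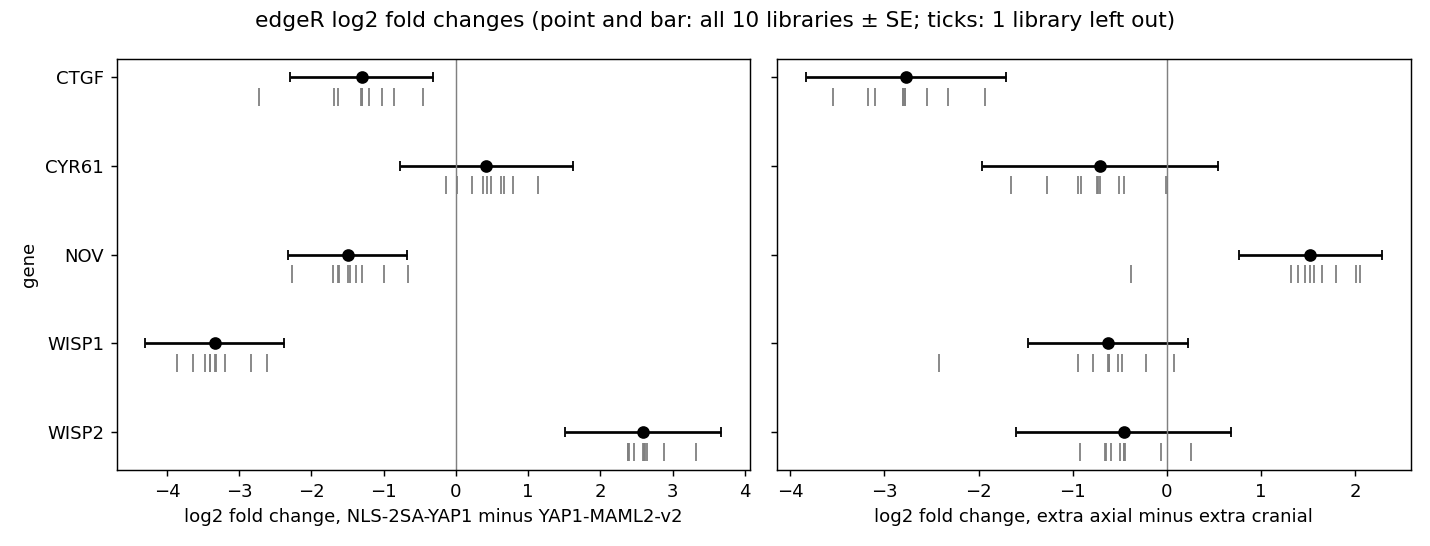
EdgeR log2 fold change of each member between constructs (left) and between regions (right), as a point with a bar of ± 1 SE, with ticks for the value when each of the 10 libraries is left out. Between constructs CTGF, NOV, WISP1 (-3.34) and WISP2 (2.59) keep their sign in every such fit, and CYR61 does not. The regional log2 fold change of NOV passes from 1.52 to -0.38 in 1 such fit.

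NOV and WISP1 ran in parallel in YAP1-MAML2-v2 tumors. The 7 tumors had the same order for both genes, from replicate 2 at the top through 4, 1, 3, 5 and 6 to 7. Log2 CPM had a Spearman's rho of 1.00 (exact permutation p = 0.000397, 0.00397 after Benjamini-Hochberg adjustment over the 10 pairs of members) and a Pearson's r of 0.90 (exact permutation p = 0.000198, adjusted 0.00198). Without the 2 tumors farthest from the NOV median, replicates 2 and 7, r was 0.96 over 5 tumors, and leaving out any 1 tumor gave r between 0.80 and 0.94. Replicates 6 and 7, possibly from 1 mouse, are neighbours in that order. The plan named all 10 tumors for correlations between members, so the set of 7 is an unplanned addition. Each adjustment covers the 10 pairs for 1 coefficient in 1 set of tumors, not all coefficients and sets together.

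Over all 10 tumors the relation was looser. Spearman's rho was 0.82 (permutation p = 0.00531, adjusted 0.0531) and Pearson's r 0.63 (permutation p = 0.0526, adjusted 0.235). Without NLS-2SA-YAP1 replicate 1, which had 368 CPM of NOV but 0.383 CPM of WISP1, r was 0.82. The 3 NLS-2SA-YAP1 tumors are too few for a value of their own. No other pair had an adjusted p under 0.05, over 10 tumors or within YAP1-MAML2-v2. CTGF and WISP1 had r = 0.69 over 10 tumors (permutation p = 0.0276, adjusted 0.235) and rho = 0.55 (permutation p = 0.105). Without the 2 tumors farthest from the CTGF median, r was 0.05. Leaving out NLS-2SA-YAP1 replicate 1 alone gave 0.30, and leaving out YAP1-MAML2-v2 replicate 4 alone gave 0.62. Within YAP1-MAML2-v2 tumors r was 0.55.

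**Figure D4:**
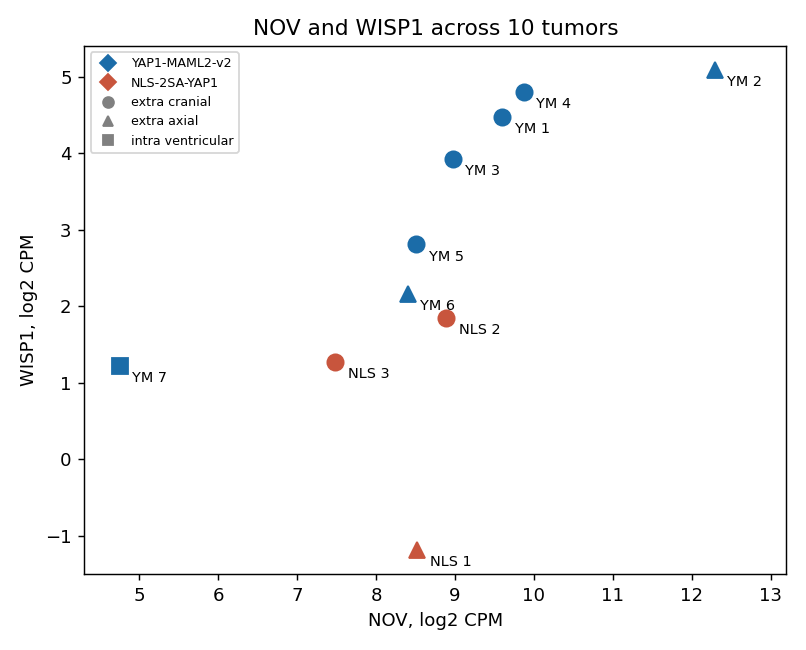
Log2 CPM of WISP1 against log2 CPM of NOV in each tumor (YM, YAP1-MAML2-v2; NLS, NLS-2SA-YAP1). The 7 blue points climb in one order for both genes (rho = 1.00), and NLS-2SA-YAP1 replicates 1 and 2 lie below the blue points of like NOV level, while no blue point is near replicate 3.

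The genes most like each member were taken as the 3 with the highest Pearson's r of log2 CPM over the 10 tumors among 11167 candidates (11168 for WISP2) that had a mean log2 CPM of at least 1 and never stood at 0 or 1. They are descriptions, since so many candidates over so few tumors give high values for any gene. Those of CTGF included ATL3, an endoplasmic reticulum GTPase (r = 0.957, rho = 0.88), and PEAK1, a cytoskeletal pseudokinase (r = 0.927, rho = 0.82). CYR61 was nearest to APBA1 (r = 0.944, rho = 0.67), B3GALT6, a galactosyltransferase that builds the linker of proteoglycan chains (r = 0.94, rho = 0.90), and TBC1D19 (r = 0.923, rho = 0.81). NOV was nearest to SUMO2 (r = 0.969, rho = 0.88), the nucleoporin NUP85 (r = 0.961, rho = 0.94) and the ATPase RUVBL2 (r = 0.95, rho = 0.81). WISP1 was nearest to the protocadherin PCDHB16 (r = 0.953, rho = 0.95), the RNA-binding protein HNRNPK (r = 0.942, rho = 0.90) and CDK6, a kinase of G1 phase (r = 0.936, rho = 0.85). WISP2 was nearest to MAEA (r = 0.936, rho = 0.89), EFEMP2, the elastic fiber protein fibulin-4 (r = 0.933, rho = 0.92), and AGBL2 (r = 0.917, rho = 0.87).

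Receptors of CCN proteins gave no call in either comparison. Of 13 receptors and co-receptors tested, 6 had higher and 7 lower values in NLS-2SA-YAP1 tumors, 0 were called by edgeR, and 0 had an unadjusted edgeR p under 0.05. Their median log2 fold change was -0.08, against -0.03 over all tested genes. The smallest p belonged to 2 integrin subunits. For ITGB1 the means were 308 ± 215 CPM in NLS-2SA-YAP1 and 536 ± 248 CPM in YAP1-MAML2-v2 tumors (SD, n = 3 and 7), and for ITGA5 91 ± 50.7 and 163 ± 99.8 CPM. Between regions 12 of 13 were lower in extra axial tumors, with 0 called and a median of -0.27 against -0.01 over all tested genes. SDC4, a heparan sulfate proteoglycan that serves as co-receptor, averaged 43.6 ± 13.9 CPM in extra axial and 86.8 ± 35.9 CPM in extra cranial tumors (SD, n = 3 and 6). LRP1, an endocytic receptor that takes up CTGF, averaged 1400 ± 362 and 2510 ± 887 CPM in turn. Their log2 fold changes were -1.01 (SE 0.46) and -0.86 (SE 0.45), each with an edgeR adjusted p of 1.

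Growth factors and signals that act with CCN proteins were lower in NLS-2SA-YAP1 tumors in 7 of 10 cases. EdgeR called 0 of them, 4 had an unadjusted edgeR p under 0.05 (13.1% of all tested genes did), and the median log2 fold change was -0.98 against -0.03 over all tested genes. TGFB2 averaged 42.5 ± 12 CPM in NLS-2SA-YAP1 and 142 ± 107 CPM in YAP1-MAML2-v2 tumors (SD, n = 3 and 7), a log2 fold change of -1.91 (SE 0.58; edgeR adjusted p = 0.25). TGFB1 had 26.5 ± 7.81 against 60 ± 28.5 CPM, and -1.30 (SE 0.44; edgeR adjusted p = 0.283). TGF-beta ligands are known inducers of CTGF. Between regions 6 of 10 were lower in extra axial tumors, with 0 called and a median of -0.24 against -0.01. VEGFA, which CTGF and CYR61 are known to work with in vessel growth, averaged 81.7 ± 27.2 CPM in extra axial and 255 ± 181 CPM in extra cranial tumors (SD, n = 3 and 6), and FGF2 37.7 ± 18.3 and 90.6 ± 64.8 CPM.

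Of 10 proteases that can cut CCN proteins, 3 passed the filter on low values, MMP2, MMP9 and MMP14, and edgeR called 0 of them in either comparison. MMP2 averaged 99.1 ± 53.6 CPM in NLS-2SA-YAP1 and 519 ± 359 CPM in YAP1-MAML2-v2 tumors (SD, n = 3 and 7), a log2 fold change of -2.65 (SE 0.58; edgeR adjusted p = 0.161). The membrane-bound MMP14 had 452 ± 243 against 198 ± 113 CPM (0.93, SE 0.49; edgeR adjusted p = 0.456). Between regions MMP14 had -0.42 (SE 0.51) and MMP2 -0.37 (SE 0.52).

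Among 12 transcription regulators of CTGF and CYR61, the NLS-2SA-YAP1 value was higher for 6 and lower for 6, with 0 called by edgeR and 3 at an unadjusted p under 0.05, against 13.1% of all tested genes. YAP1, which is part of both constructs, averaged 513 ± 86.6 CPM in NLS-2SA-YAP1 and 148 ± 16.2 CPM in YAP1-MAML2-v2 tumors (SD, n = 3 and 7; edgeR adjusted p = 0.0898). Viral and endogenous YAP1 transcripts cannot be told apart here. The groups did not overlap for YAP1 and for TEAD4, at 16 ± 3.98 against 4.28 ± 1.47 CPM, which is 2 of 12 regulators against 6.73% of all tested genes. YAP1 is carried by the vectors and is also among the 3 regulators above, and TEAD4 was named after its values were seen. Both counts are therefore descriptions. TEAD2 went the other way, with 10.5 ± 1.54 against 31.5 ± 13.9 CPM. The CTGF and CYR61 levels of the constructs overlapped, and whether the RNA of these regulators bears on them was not tested. Between regions 6 of the 12 were higher and 6 lower, with 0 called, and the 2 of smallest p were SMAD3 (log2 fold change -0.45, SE 0.38) and MKL1 (0.41, SE 0.36).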

How the data were processed

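RNA-seq of 10 tumors was used. Per the submitters' processing notes, HTSeq and the build mm10 were used, with no version for HTSeq. The sources used here do not give the aligner, annotation or strand setting. What the authors deposited are whole numbers per gene symbol in capitals, treated here as estimated counts. In 10505 genes whose median exceeds 200 there are 251 values of 0, 219 of 1 and 21 of 2, unlike plain counts. No rounding was needed. The plan had assumed counts.

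Genes were kept with filterByExpr (minimum count 10) with TMM scaling. EdgeR 4.0.16 (R 4.3.3) gave the main test, quasi-likelihood with robust dispersion, construct and region as terms, over 13707 genes with Benjamini-Hochberg adjustment and a threshold of 0.05. The SE of a log2 fold change is its size divided by the square root of the F statistic. Log2 CPM used a prior count of 2. DESeq2 1.42.0, limma 3.58.1, other scalings, filters and left-out libraries were alternatives. Permutation tests over 10 libraries drew 100000 resamples, and smaller ones were exact. The fitting step was tested on simulated data. Lengths are the union of exons in GENCODE M21.

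The members and gene lists were chosen with earlier results of these data known. Named genes are the members, WISP3, the 2 genes of smallest p in each list and comparison, and the 3 genes most like each member, of which 1 is not reported here. TEAD4 and MMP9 were added after their values were seen. Marker lists covered skeletal muscle, cartilage and bone, endothelium, pericytes and smooth muscle, macrophages and microglia, neurons, astrocytes, meningeal fibroblasts, adipocytes, and choroid plexus with ependyma.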

Additional observations from a re-analysis of the deposited data

Results flagged for a closer look

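NOV in YAP1-MAML2-v2 replicate 2, at 4990 CPM, stood far from the other YAP1-MAML2-v2 tumors. Its gap to the next tumor was 0.817 of the group's range, above the 0.568 that Dixon's test allows for 7 samples. In all, 10 such groups of CPM values were examined, and chance alone marks about 1 in 20 where values are normally distributed. The CPM were not logged, so that rate need not hold here. In log2 CPM the highest, second and lowest NOV values of the group were 12.29, 9.87 and 4.75, and Dixon's test was not run on that scale. In that tumor the meningeal fibroblast and arachnoid markers summed to 21200 CPM, the pericyte and smooth muscle markers to 2420 CPM and the macrophage and microglia markers to 320 CPM, and their part in the NOV value was not tested.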

How the results depend on the processing

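Over 222 refits of the members' log2 fold changes, 214 kept direction and side of the threshold, 7 turned sign and 1, WISP1 between constructs with DESeq2 (-3.36), passed the threshold. CYR61 between constructs turned to -0.15 in extra cranial tumors alone. With the replicate block on replicates 1 to 3 it was -0.01, and 2 genes were called; same-numbered tumors did not deviate together in every pair (correlations 0.167, 0.337 and -0.072), so the numbers were not taken as pairs. WISP1 between regions was 0.09 in YAP1-MAML2-v2 tumors alone. With 1 library left out, CYR61 between constructs ran from -0.14 to 1.14, and between regions NOV ran from -0.38 to 2.05, WISP1 from -2.42 to 0.08 and WISP2 from -0.92 to 0.26. The cause was not tested.

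Across all genes, edgeR called 2 between constructs and 0 to 2 with 1 library left out. DESeq2 called 674, limma-voom 95, limma on log2 CPM 4 with either prior count, edgeR with no filter 4, edgeR in extra cranial tumors 4, and edgeR without genes at 0 or 1 called 1. Without YAP1-MAML2-v2 replicates 6 and 7, or with muscle as a covariate, both chosen after seeing the data, it called 0 (1522 and 1287 at an unadjusted p under 0.05). Between regions edgeR called 0 (413 at an unadjusted p under 0.05), 0 to 1 with 1 library left out and 1 without replicates 6 and 7, and DESeq2 31. WISP2 was not tested without genes at 0 or 1, nor between regions in YAP1-MAML2-v2 tumors alone. The SD of log2 CPM moved to 1.25 for CTGF and 1.29 for CYR61 without 1 tumor.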

Other observations

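WISP3, the remaining CCN gene and no member of the set, had deposited values of 0 to 3 in every library and did not pass the filter on low values. The CPM of the 5 members summed to between 811 in YAP1-MAML2-v2 replicate 6 and 6740 in replicate 4. In the NLS-2SA-YAP1 tumors the sums were 838, 1650 and 3360 CPM. CTGF was the largest part of the sum in replicate 4, and NOV in YAP1-MAML2-v2 replicate 2.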
